A study of Homo sapiens with 12 samples.

Results

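A chosen set of 10 epithelial identity and mesenchymal marker genes was followed across 4 transfections of a prostate cancer cell line. They were the mesenchymal markers VIM and FN1, the junction genes CDH1, CTNNB1, EPCAM and CLDN7, the keratins KRT8, KRT18 and KRT19, and the integrin gene ITGA6. The genes were chosen by symbol, with earlier results of these data known. All 10 were found among the 13001 genes listed in the deposited count and TPM tables. LNCaP (clone FGC) is an established line from a lymph node metastasis of prostate cancer. Cells at passage 8, grown in RPMI with serum, were transfected transiently by lipofection, and the medium was replaced after 6 h. The plasmids were an empty vector (EV), one coding for LSD1, one coding for LSD1+8a and one coding for SRRM4, with 3 polyA RNA-seq libraries each. LSD1 (gene KDM1A) is a histone demethylase, LSD1+8a is its form with a neural microexon, and SRRM4 is a splicing factor that promotes the inclusion of such microexons. The share of cells that took up a plasmid and the promoter of each plasmid are not given in the sources used here. Whether the 3 libraries of a plasmid are separate transfections is not stated in the labels, so each p-value rests on a spread that may be technical only.

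Epithelial cells hold to each other through E-cadherin (CDH1), whose tail binds beta-catenin (CTNNB1), and through tight junctions built from claudins such as CLDN7. Their cytoplasm carries a network of paired type I and type II keratins, whereas mesenchymal cells build theirs from vimentin (VIM) and secrete fibronectin (FN1) into the matrix. In an epithelial-to-mesenchymal transition the first set classically falls and the second rises, and LNCaP is a luminal line that expresses E-cadherin and the keratins of simple epithelia.

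In counts, VIM and FN1 were the members that changed most with SRRM4, in opposite directions, and the sequences before their start sites are printed for comparison. Both come from RefSeq on GRCh38.p14, a different build from that named in the submitters' processing notes. For VIM the 250 bases upstream are chr10:17227991-17228240 on the plus strand. For FN1 the stretch is chr2:215436173-215436318 on the minus strand, 146 bases from position -250 to -105 from the start, ending before an annotated FN1 exon of GENCODE v29. Capitals mark each GC box (GGGCGG) and each cAMP response element (TGACGTCA), the motif through which CREB-family factors bind.
VIM: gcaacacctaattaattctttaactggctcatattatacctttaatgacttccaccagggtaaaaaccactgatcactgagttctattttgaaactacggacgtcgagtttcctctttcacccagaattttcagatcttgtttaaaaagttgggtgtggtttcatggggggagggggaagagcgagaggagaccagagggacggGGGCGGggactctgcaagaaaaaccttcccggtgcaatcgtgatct
FN1: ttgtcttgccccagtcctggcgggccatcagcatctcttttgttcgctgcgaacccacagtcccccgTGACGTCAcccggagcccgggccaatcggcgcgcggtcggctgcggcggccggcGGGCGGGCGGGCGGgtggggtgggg
The VIM stretch held 1 GC box, at position -46. The FN1 stretch held 1 cAMP response element, at position -183, and 3 GC boxes that overlap one another, at positions -129, -125 and -121. Over its whole 250 bases the FN1 window was 76.4% G and C, against 46% for VIM. That window also held GC boxes at positions -107, -102 and -49, which do not lie whole in the printed stretch and are not marked. The following motifs were searched on both strands in the 250 bases upstream of 35116 RefSeq promoters. A GC box (GGGCGG or CCGCCC) was held by 42.6% of promoters, and by those of VIM, FN1, CTNNB1, ITGA6 and CLDN7, the last 2 of which have 2 entries each. The cAMP response element, which reads the same on both strands, was held by 1.65% and by FN1 and CLDN7. An E-box of the kind SNAI and ZEB factors bind (CAGGTG or CACCTG) was held by 17.5% and by ITGA6 and CLDN7. The AP-1 motif (TGAGTCA or TGACTCA) was held by 4.203% and by no member with an entry. KRT8 had an entry in which none of these letters occurred. CDH1, EPCAM, KRT18 and KRT19 had no entry.

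Library totals were 12750609 to 13570740 counts with EV, 11658730 to 12565335 with LSD1, 12110101 to 13359671 with LSD1+8a and 10876293 to 11485489 with SRRM4, so the SRRM4 libraries were the shallowest. KDM1A, the gene of LSD1, was at 93.7 to 95.2 CPM (counts per TMM-scaled library total) with EV, 515 to 587 with LSD1, 1983 to 2608 with LSD1+8a and 92.0 to 100.1 with SRRM4. The transcript of SRRM4 itself was not analysed here, so the SRRM4 transfection was not checked by its own transcript as the LSD1 plasmids were by KDM1A. All 12 luminal and LNCaP marker genes fixed for the check of the line were measured, and their summed level was 6319 to 6406 TPM with EV and 5675 to 5746 TPM with SRRM4. Of 11 fibroblast markers 3 were measured (COL1A1, COL3A1 and ACTA2), summing to 15.73 to 15.96 TPM with EV and 16.8 to 20.1 TPM with SRRM4. Of 8 endothelial markers 1 (VWF) and of 8 leukocyte markers 1 (CD68) were measured, each under 8 TPM. The other markers of those lists were not analysed here.

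TPM scales counts by transcript length and allows levels to be compared between genes. In EV cells the keratin pair led the members, at 446 ± 16.9 TPM for KRT18 and 444 ± 12.9 TPM for KRT8 (SD, n = 3), ranks 243 and 244 of the 13001 genes. Their ranges overlapped, 427 to 461 and 435 to 459 TPM, and no other neighbours in the order did. CLDN7 followed at 344 ± 2.97 TPM (SD, n = 3), CDH1 at 250 ± 6.67, FN1 at 167 ± 6.96, CTNNB1 at 138 ± 2.64 and EPCAM at 76.4 ± 0.466. Fibronectin mRNA thus stood between E-cadherin and beta-catenin in these luminal cells. VIM was at 40.7 ± 3.93 TPM (SD, n = 3), rank 3676, ITGA6 at 17.0 ± 1.07 and KRT19 at 6.45 ± 0.481, rank 10240. The plot of TPM in every library shows that the order was the same with SRRM4 except that KRT8 stood above KRT18.

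**Figure D1:**
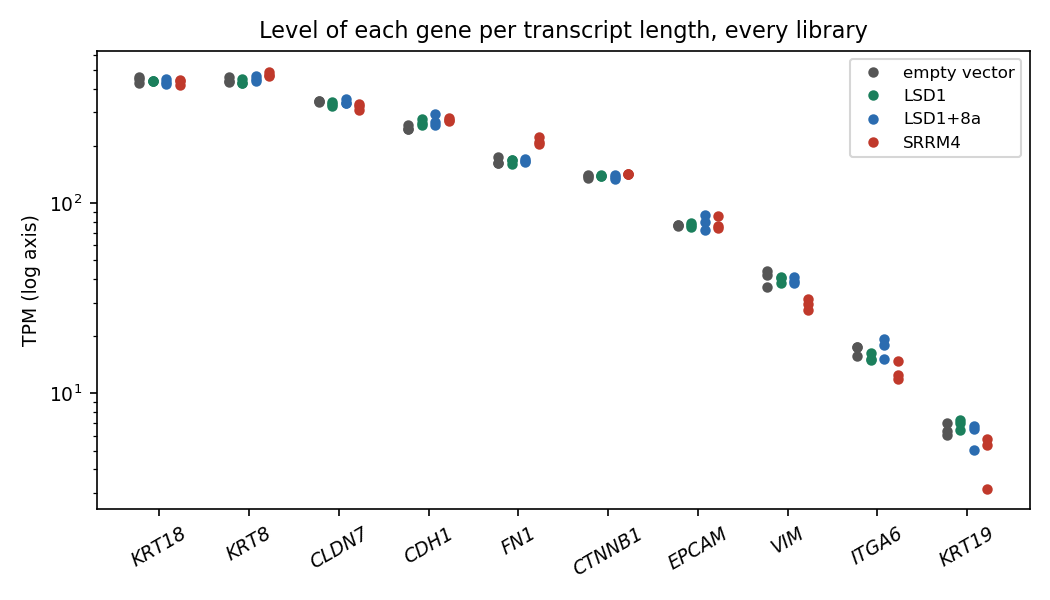
Deposited TPM (log axis) of each gene in each of the 12 libraries, one point per library, coloured by transfection and ordered by the level with empty vector. The keratin pair KRT18 and KRT8 is highest at 446 and 444 TPM with empty vector and KRT19 lowest at 6.45; the SRRM4 points lie above the others for FN1 and below them for VIM.

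SRRM4 against EV. With SRRM4 the counts of the mesenchymal marker VIM fell and those of FN1 rose. Among the epithelial genes KRT8 rose in counts while ITGA6 and, by less, CDH1 fell. CTNNB1, EPCAM, KRT18, KRT19 and CLDN7 did not pass the test. In all 5 of the 10 members were called, 2 higher and 3 lower, at an adjusted p under 0.05 in edgeR's quasi-likelihood test. Over all genes the same test called 7.68% in either direction, 4.47% higher and 3.22% lower. The median log2 fold change of the 10 members was -0.06, against -0.0011 for all genes. The CPM of the 2 groups did not overlap for 6 members, against 25.3% of all genes. Since the members were chosen with earlier results of these data known, these shares are no test of the set. On TPM limma called VIM and FN1 alone among the members, and CDH1 turned direction, as given further on. In bulk libraries, fewer cells expressing a gene and less of its RNA per cell cannot be told apart.

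**Figure D2:**
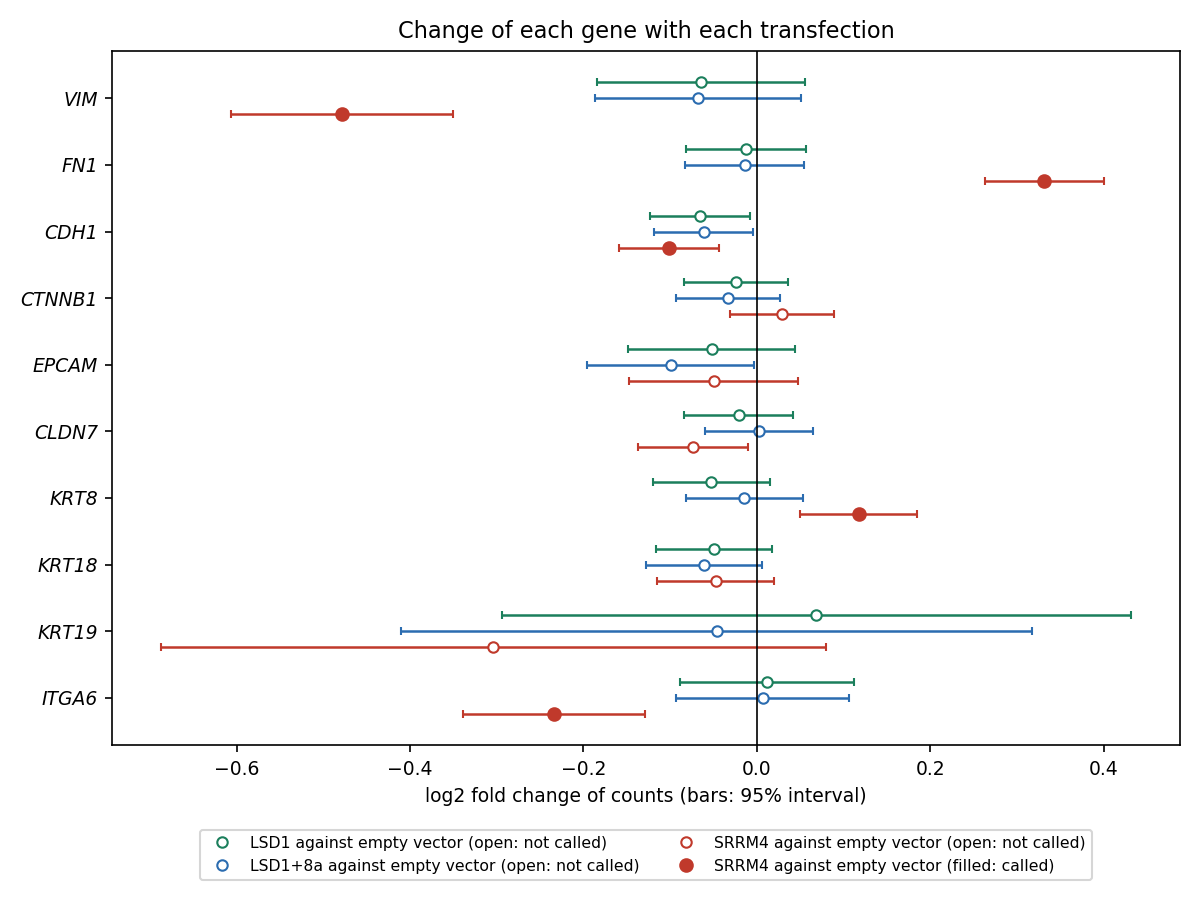
Log2 fold change of counts (x axis) for each gene (rows) with each coding plasmid against empty vector; bars are 95% intervals from the model's SE and filled points were called at an adjusted p under 0.05. The filled points are VIM at -0.48, ITGA6 at -0.23 and CDH1 at -0.10 on the lower side and KRT8 at 0.12 and FN1 at 0.33 on the higher side, all with SRRM4.

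VIM encodes vimentin, the intermediate filament protein of mesenchymal cells. Its level was 55.7, 58.8 and 48.3 CPM in the 3 EV libraries and 40.5, 39.9 and 36.4 CPM in the 3 SRRM4 libraries. All SRRM4 libraries lay below all EV libraries, and also below the LSD1 libraries (53.7, 51.9 and 50.1 CPM) and the LSD1+8a libraries (51.7, 53.6 and 50.02 CPM). VIM fell by 0.48 on the log2 scale with SRRM4 (SE 0.063, edgeR adjusted p = 1.5e-06), a change of -28.2% with a 95% interval of -34.3% to -21.6%. By size this fall was 14th among the 418 genes called lower, whose median was -0.19. It was also called on TPM.

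FN1 encodes fibronectin, the matrix glycoprotein that cells bind through integrins. The EV libraries gave 894, 844 and 850.1 CPM and the SRRM4 libraries 1141, 1092 and 1022 CPM. Every SRRM4 library was above the 9 others, of which the LSD1 libraries gave 879, 854 and 832 CPM and the LSD1+8a libraries 865, 846 and 851 CPM. FN1 rose by 0.33 (log2; SE 0.034, edgeR adjusted p = 7.8e-09), which is 25.8% with a 95% interval of 19.95% to 31.9%. The rise ranked 239th of 581 genes called higher, whose median was 0.27. The direction and the call of VIM and of FN1 held in all 22 alternative analyses of this comparison, with log2 fold changes of -0.56 to -0.42 and 0.29 to 0.37. The ratio of FN1 to VIM in TPM was 4.13 ± 0.402 (SD, n = 3) with EV and 7.20 ± 0.184 with SRRM4, while the LSD1 libraries gave 4.16 ± 0.0586 and the LSD1+8a libraries 4.25 ± 0.171. This ratio had its SRRM4 values, 7.09 to 7.42, clear of the highest EV value of 4.49.

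**Figure D3:**
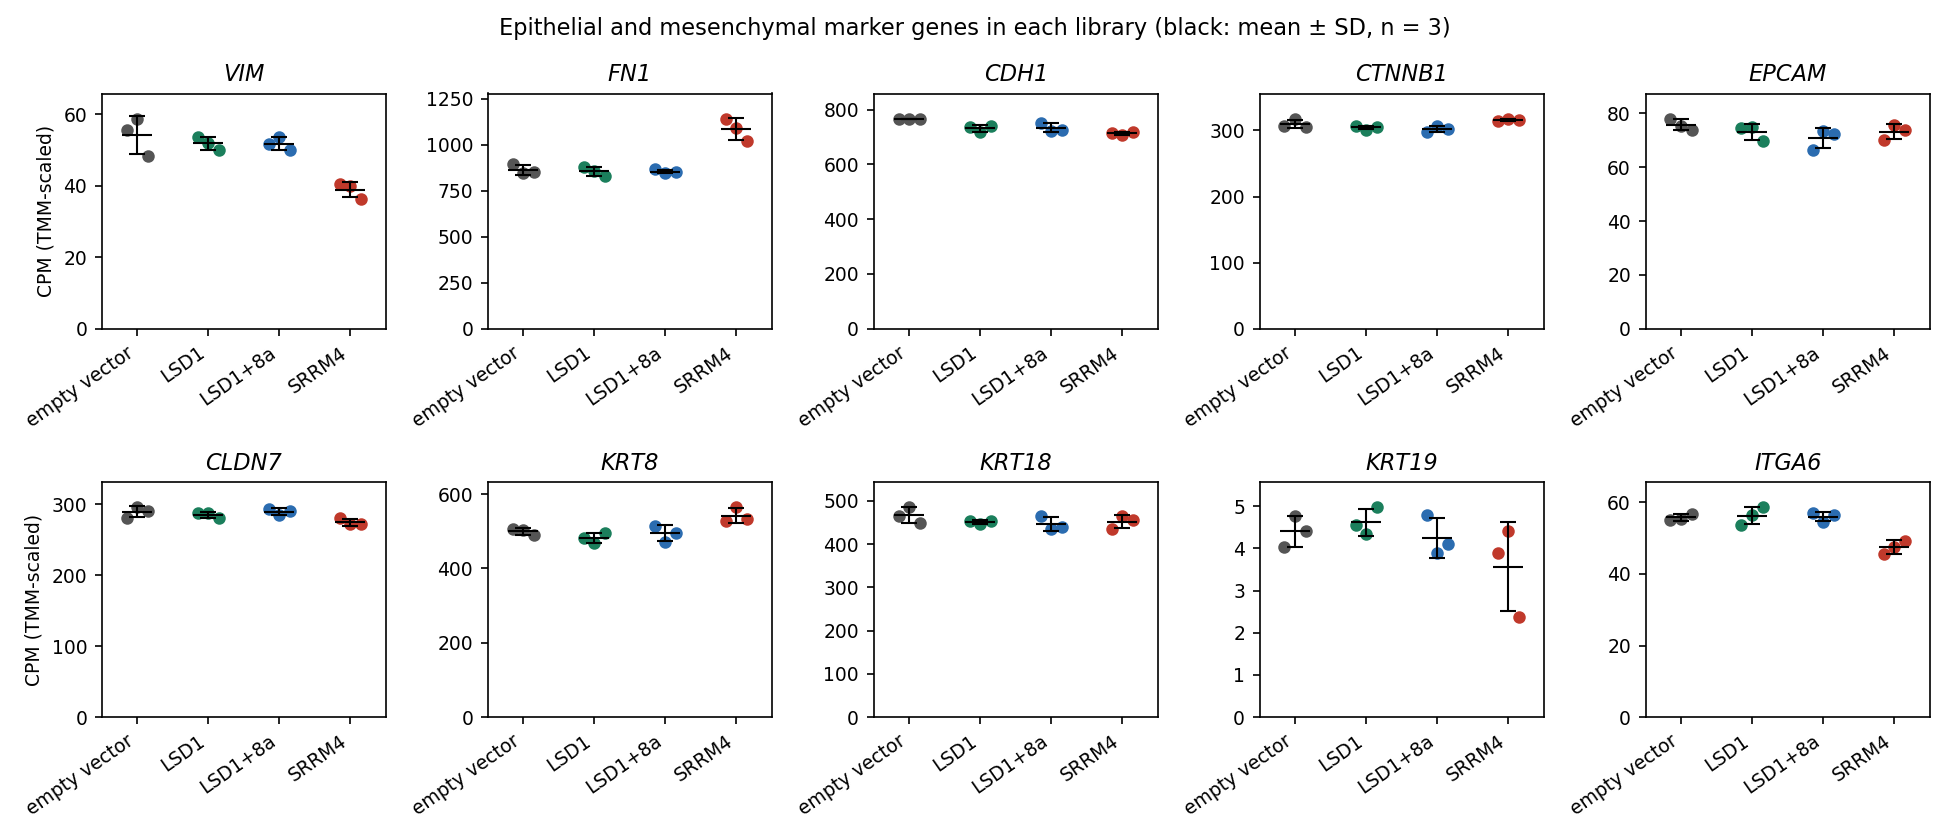
CPM (y axis, from 0) of each gene in each of the 12 libraries, one panel per gene; points are libraries and black bars the mean ± SD of 3 libraries. The SRRM4 points stand apart for VIM (36.4 to 40.5 CPM, against 48.3 to 58.8 with empty vector), FN1 (1022 to 1141 against 844 to 894) and ITGA6 (45.5 to 49.3 against 55.1 to 56.8).

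CDH1 encodes E-cadherin, the adhesion receptor of adherens junctions. Its EV libraries were close together, at 766, 767 and 765 CPM. With SRRM4 it was at 716, 708 and 719 CPM, all below EV. CDH1 counts fell by 0.10 (log2; SE 0.028, edgeR adjusted p = 0.021), a change of -6.76% with a 95% interval of -10.4% to -2.96%. This was among the smallest falls called, 409th of 418 by size. The call was lost when EV library 1 or any 1 of the 3 SRRM4 libraries was left out (edgeR adjusted p between 0.055 and 0.077). On the TPM scale the direction turned, as described further on for this gene.

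CTNNB1 encodes beta-catenin, which joins E-cadherin to the cytoskeleton and carries Wnt signals to the nucleus. It was at 307, 317 and 305 CPM with EV and 315, 318 and 315 CPM with SRRM4, and the groups overlapped. The log2 fold change was 0.03 (SE 0.030, edgeR adjusted p = 0.63), with a 95% interval of -2.15% to 6.39%. EPCAM, an epithelial adhesion molecule used to capture carcinoma cells, was at 78.1, 75.4 and 73.9 CPM with EV and 70.1, 75.6 and 74.0 CPM with SRRM4. Its interval ran from -9.73% to 3.36% (edgeR adjusted p = 0.61). CLDN7, a claudin of tight junctions and the lateral membrane, was at 281, 296 and 291 CPM with EV and 281, 272 and 272 CPM with SRRM4. The groups touched at 281 CPM without overlapping, and the log2 fold change of -0.07 (SE 0.031) did not pass the test (edgeR adjusted p = 0.15).

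KRT8, the type II keratin of simple epithelia, was at 506, 504 and 489 CPM with EV and 528, 565 and 532 CPM with SRRM4. No SRRM4 library overlapped with EV, LSD1 (482, 468 and 494 CPM) or LSD1+8a (515, 472 and 496 CPM). KRT8 rose by 0.12 (log2; SE 0.033, edgeR adjusted p = 0.023), a change of 8.46% with a 95% interval of 3.49% to 13.7%, and ranked 558th of 581 rises by size. Without EV library 3 or SRRM4 library 2 the call was lost (edgeR adjusted p = 0.10 and 0.17), and on TPM it did not pass (limma adjusted p = 0.19). The KRT8 pseudogenes in the tables, KRT8P12 at 7.13 to 9.80 CPM and KRT8P3 at 2.21 to 4.30 CPM, were low beside it, but how reads shared with such copies were assigned is not given in the sources used here. In RefSeq the spans of KRT8 and KRT18 overlap, as do those of VIM and its antisense gene VIM-AS1, and without stated use of strand, reads from such overlaps cannot be told apart.

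KRT18, the type I partner of KRT8, was at 466, 486 and 449 CPM with EV and 435, 464 and 456 CPM with SRRM4. The groups overlapped, and the 95% interval of the change was -7.66% to 1.39% (edgeR adjusted p = 0.45). The ratio of KRT8 to KRT18 in TPM was 0.998 ± 0.0387 (SD, n = 3) with EV and 1.10 ± 0.0332 with SRRM4, while the LSD1 libraries gave 0.987 ± 0.0262 and the LSD1+8a libraries 1.04 ± 0.0063. Its SRRM4 values of 1.06 to 1.13 lay above the EV values of 0.953 to 1.02. The LSD1+8a values, 1.03 to 1.04, also lay above EV, while those with LSD1 overlapped with EV. No test was made on this ratio. KRT19, a type I keratin without a fixed partner, rested on 26 to 64 counts per library. It was at 4.03, 4.77 and 4.41 CPM with EV and 3.903, 4.41 and 2.38 CPM with SRRM4. The lowest value was SRRM4 library 3, and the groups overlapped in CPM. In TPM they did not, at 6.04 to 6.98 with EV and 3.16 to 5.73 with SRRM4, a log2 ratio of means of -0.44. At this depth the 95% interval was wide, -37.9% to 5.67% (edgeR adjusted p = 0.38).

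ITGA6 encodes the integrin alpha subunit of laminin receptors, which anchors epithelia to the basement membrane. It was at 55.1, 55.5 and 56.8 CPM with EV and 45.5, 47.5 and 49.3 CPM with SRRM4. All SRRM4 libraries lay below the 9 others, with LSD1 at 53.8, 56.5 and 58.7 CPM and LSD1+8a at 57.0, 54.6 and 56.5 CPM. ITGA6 fell by 0.23 (log2; SE 0.052, edgeR adjusted p = 0.0026), a change of -15.0% with a 95% interval of -21.0% to -8.55%. The call held without each library in turn, and the fall was 126th of 418 by size. On TPM the fall was larger and did not pass the test (log2 fold change of group means -0.38, limma adjusted p = 0.088).

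The luminal markers moved with SRRM4 as well. Of the 12 genes, 7 were called lower and none higher against EV, among them KLK3, FOLH1 and TMPRSS2, with a median log2 fold change of -0.13 over the 12, against 3.22% of all genes called lower and a median of -0.0011. On TPM limma called 3 of the 12 lower, with FOLH1 and TMPRSS2 not among them, and TMPRSS2 also lost its call without EV library 2, SRRM4 library 2 or SRRM4 library 3 (edgeR adjusted p between 0.054 and 0.079). Of the 3 fibroblast markers measured none was called by edgeR, limma or DESeq2. At an unadjusted p under 0.05 in edgeR 1 was higher, and the share of all genes at that threshold was not counted. VWF, the endothelial marker measured, was called lower, at 24.1 ± 0.647 CPM with EV and 19.7 ± 1.55 with SRRM4 (SD, n = 3), a log2 fold change of -0.29 (edgeR adjusted p = 0.013) that was not called by DESeq2 or limma or without SRRM4 library 3 (edgeR adjusted p = 0.10). CD68 was not called by edgeR, DESeq2 or limma and its unadjusted p in edgeR was not under 0.05. The part of these changes, and of the lower depth of the SRRM4 libraries, in the values of VIM, FN1 and the other members was not tested.

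LSD1 and LSD1+8a against EV. These comparisons ask what each form of LSD1 does to the markers. No member was called with either plasmid by edgeR, DESeq2 or limma. At an unadjusted p under 0.05 edgeR gave 2 members with LSD1+8a, CDH1 and EPCAM, and 1 with LSD1, CDH1, all lower. The share of all genes at that unadjusted threshold was not counted, so no excess is read from these members. At the adjusted threshold, 0.346% of all genes were called with LSD1+8a and 0.1% with LSD1, so few calls were made anywhere. The 2 comparisons share the EV libraries.

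CDH1 was the member whose CPM lay below EV in every library of all 3 coding plasmids. With LSD1 it was at 736, 718 and 742 CPM and with LSD1+8a at 752, 723 and 727 CPM, all 6 under the lowest EV value of 765. Its log2 fold change was -0.07 with LSD1 (SE 0.028, edgeR adjusted p = 0.78) and -0.06 with LSD1+8a (SE 0.028, edgeR adjusted p = 0.70). EPCAM with LSD1+8a was at 66.6, 73.5 and 72.2 CPM, below EV in all libraries, with a log2 fold change of -0.10 (SE 0.047, edgeR adjusted p = 0.73). The CPM of 2 members with LSD1+8a and of 1 with LSD1 did not overlap with EV, against 11.8% and 11.7% of all genes.

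For VIM, FN1, KRT8 and ITGA6 the intervals with the LSD1 plasmids included no change. VIM had a 95% interval of -12.2% to 3.56% with LSD1+8a and -12.0% to 3.95% with LSD1. For FN1 the interval was -5.58% to 3.86% with LSD1+8a and -5.49% to 3.97% with LSD1. KRT8 had -5.55% to 3.72% and -8.00% to 1.07%, and ITGA6 had -6.26% to 7.64% and -5.98% to 8.10%, in the same order. Each of these intervals left out the change measured with SRRM4. CTNNB1, CLDN7 and KRT18 had log2 fold changes between -0.06 and 0.0022 in both comparisons, and KRT19 was within its wide error, -0.05 (SE 0.18) with LSD1+8a and 0.07 (SE 0.18) with LSD1.

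LSD1+8a against LSD1. The 2 forms, which differ by the microexon, could not be separated by any member. None was called by edgeR, DESeq2 or limma, none had an unadjusted p under 0.05 in edgeR, and the CPM of the groups overlapped for all 10. Over all genes 0.323% were called and 11.7% did not overlap. The 95% intervals were -8.34% to 8.45% for VIM, -4.76% to 4.79% for FN1, -3.63% to 4.37% for CDH1, -2.08% to 7.58% for KRT8 and -7.10% to 6.86% for ITGA6. KDM1A itself was higher in the LSD1+8a libraries than in the LSD1 libraries, so the forms were compared at unequal levels of KDM1A RNA.

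SRRM4 against LSD1+8a and against LSD1. Against each LSD1 form, SRRM4 cells again had less VIM and ITGA6 and more FN1 and KRT8. In each comparison 4 members were called, 2 higher and 2 lower, and edgeR called 7.58% of all genes against LSD1+8a (4.42% higher, 3.17% lower) and 7.05% against LSD1 (4.38% higher, 2.67% lower). These comparisons use the same SRRM4 libraries as the one against EV. The log2 fold changes of VIM were -0.41 against LSD1+8a (SE 0.064, edgeR adjusted p = 3.4e-05) and -0.41 against LSD1 (SE 0.064, edgeR adjusted p = 2.9e-05). FN1 was higher by 0.35 (SE 0.034, edgeR adjusted p = 3.7e-09) and 0.34 (SE 0.034, edgeR adjusted p = 3.8e-09). ITGA6 was at -0.24 (SE 0.052, edgeR adjusted p = 0.0023) and -0.25 (SE 0.052, edgeR adjusted p = 0.0021). For KRT8 the values were 0.13 (SE 0.033, edgeR adjusted p = 0.011) and 0.17 (SE 0.033, edgeR adjusted p = 9.1e-04), and its call against LSD1+8a was lost without LSD1+8a library 2 or SRRM4 library 2 (edgeR adjusted p = 0.11 in both). On TPM neither gene passed in either comparison (limma adjusted p = 0.071 and 0.28 for ITGA6, 0.36 and 0.095 for KRT8).

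CDH1 was not called in these comparisons, with 95% intervals of -6.51% to 1.28% against LSD1+8a and -6.25% to 1.58% against LSD1. Its level with SRRM4 was thus separated by the test from EV and not from the other plasmids. That the change against EV differs from that with LSD1 or LSD1+8a is tested by the same fit, since the EV libraries cancel, and it did not pass (edgeR adjusted p = 0.46 against LSD1+8a and 0.53 against LSD1). The CPM of the groups did not overlap for 7 members against LSD1+8a and 5 against LSD1, compared with 25.5% and 25.6% of all genes.

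CDH1 in counts and in TPM. The 2 deposited scales gave opposite directions for E-cadherin. In TPM it was at 247, 257 and 245 with EV and 271, 275 and 279 with SRRM4. The LSD1 libraries gave 278, 258 and 263 and the LSD1+8a libraries 267, 259 and 294. All 9 libraries with a coding plasmid were above the 3 EV libraries, whereas in CPM all 9 were below. The log2 ratio of mean TPM was 0.14 for SRRM4 against EV, which limma did not call (adjusted p = 0.14). Of the 999 genes called in that comparison 13, or 1.30%, had opposite signs in counts and TPM, and CDH1 was the only member among them.

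TPM divides counts by an effective transcript length, so the ratio of count to TPM reflects that length where both tables come from the same quantification, which is not stated in the sources used here. The ratio was set relative to the median gene of each library. This quantity was computed after the values had been seen. For CDH1 it was 1.97, 1.87 and 1.98 with EV and 1.70, 1.64 and 1.66 with SRRM4. The LSD1 libraries gave 1.70, 1.80 and 1.82 and the LSD1+8a libraries 1.81, 1.80 and 1.60. Against EV the mean changed by -13.9% with SRRM4, -10.3% with LSD1+8a and -8.40% with LSD1. Among 11336 genes with enough counts, 2.16% fell more than CDH1 with SRRM4, 3.48% with LSD1+8a and 5.85% with LSD1. Groups that did not overlap were seen in 18.4%, 11.3% and 11.1% of these genes in the 3 comparisons. For ITGA6 the ratio was 12.8% higher with SRRM4, where the groups overlapped, 12.7% higher with LSD1, where they did not, and 0.0378% higher with LSD1+8a, where they overlapped. Gene-level values do not show which transcripts were counted, and the cause of the opposite directions was not tested.

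**Figure D4:**
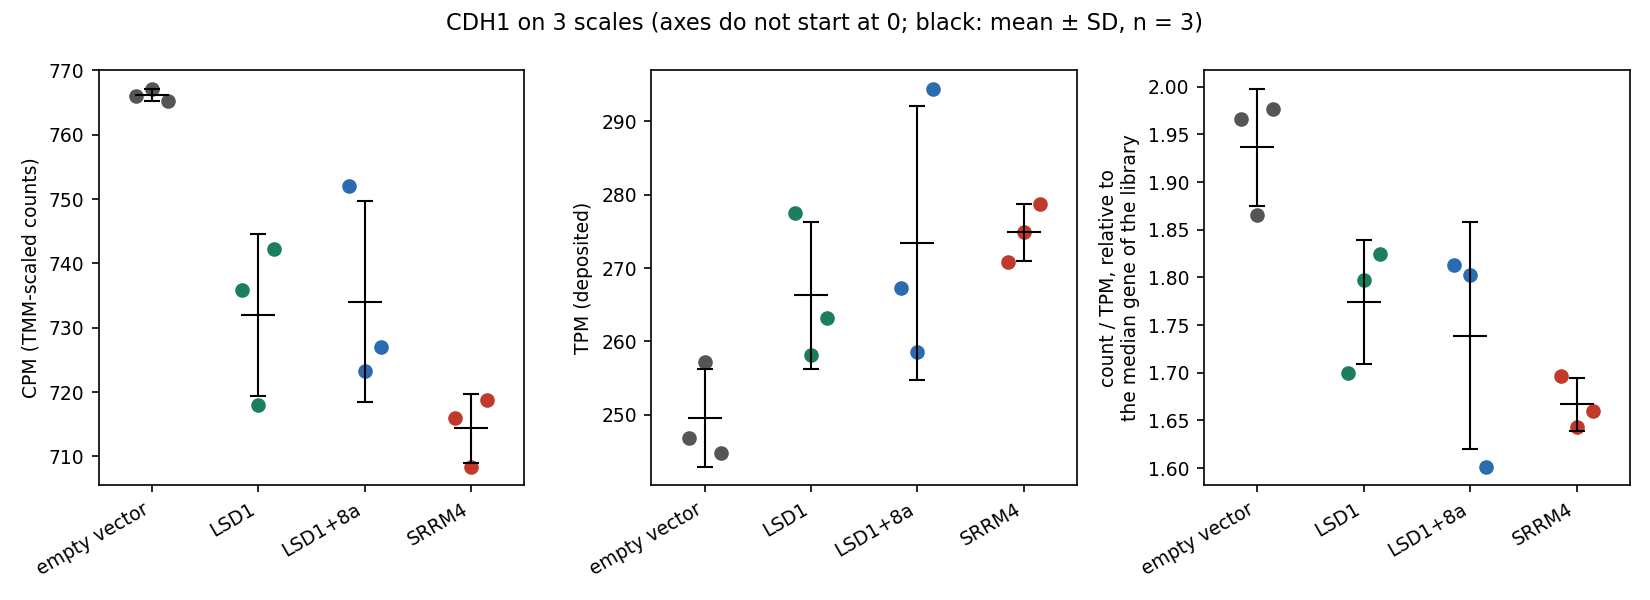
CDH1 in each library as CPM (left), deposited TPM (middle) and count divided by TPM relative to the median gene of the library (right); points are libraries, black bars the mean ± SD of 3, and the y axes do not start at 0. The SRRM4 points lie below empty vector in CPM (708 to 719 against 765 to 767), above it in TPM (271 to 279 against 245 to 257) and below it in the ratio of count to TPM.

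The authors' deposited table of comparisons with EV gave the same 5 members an adjusted p under 0.05 with SRRM4 and none with LSD1+8a or LSD1. It comes from the same libraries, and for FN1 and CDH1 its adjusted p equals the lowest among the alternatives run here. It is thus not support separate from the DESeq2 calls given further on. In the authors' deposited table the log2 fold change with SRRM4 was -0.48 for VIM, 0.33 for FN1, -0.10 for CDH1, 0.12 for KRT8 and -0.23 for ITGA6. For LSD1 that authors' deposited table gave no adjusted p for 4 members.

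Related genes with SRRM4 against EV. In all, 8 lists of genes from the same structures were counted, read against the 7.68% of all genes called and the all-gene median of -0.0011. Junction genes moved in both directions. Of 15 adherens junction and desmosome genes measured (19 listed), 2 rose and 1 fell, with a median of 0.02. PVRL1 (nectin 1) was at 0.16 (SE 0.047, edgeR adjusted p = 0.033), MLLT4 (afadin, which ties nectins to actin) at 0.14 (SE 0.041, edgeR adjusted p = 0.024) and DSP (desmoplakin, which ties keratins to desmosomes) at -0.17 (SE 0.042, edgeR adjusted p = 0.011). JUP (plakoglobin) was at 0.08 and did not pass the test (edgeR adjusted p = 0.072). Among 25 tight junction and polarity genes (26 listed), 3 rose and 2 fell, with a median of 0.08. SCRIB, a basolateral polarity scaffold, rose by 0.24 from 107 ± 5.81 to 126 ± 0.897 CPM (SD, n = 3), with edgeR adjusted p = 9.3e-05. F11R, a junctional adhesion molecule, was at 0.09 against EV (edgeR adjusted p = 0.15) and was called higher against LSD1 (0.15, edgeR adjusted p = 0.010), a call not made by limma on TPM and lost without SRRM4 library 1. MARVELD3 was at 0.26, MPP5 at 0.14 and INADL at -0.16, the last a PDZ scaffold of the Crumbs complex. TJP1, a tight junction scaffold named after its value was seen, was at -0.10 (edgeR adjusted p = 0.043).

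Among 25 epithelial regulators and surface markers (30 listed), 1 rose and 3 fell, with a median of -0.04. GRHL3, a grainyhead factor of epithelial differentiation, rose by 0.83 (SE 0.24, edgeR adjusted p = 0.024) from 1.73 ± 0.690 to 3.10 ± 0.356 CPM (SD, n = 3). ERBB3 (a receptor of neuregulins) was at -0.15, RAB25 (an epithelial trafficking GTPase) at -0.15 and MAL2 (an apical transport protein) at -0.16. ESRP1, the epithelial splicing regulator, was at 90.5 ± 3.11 CPM with EV and 82.0 ± 2.72 with SRRM4 (SD, n = 3). Its log2 fold change of -0.14 missed the threshold (edgeR adjusted p = 0.052). It passed with upper-quartile scaling, with 2 groups only and in 4 of 12 analyses with 1 library left out (edgeR adjusted p between 0.035 and 0.049). In the other alternatives it did not pass. ESRP1 was called lower against LSD1+8a (-0.17, edgeR adjusted p = 0.018) and against LSD1 (-0.18, edgeR adjusted p = 0.012). Neither of these calls was made by limma on TPM, and the call against LSD1+8a was not made by DESeq2 either (adjusted p = 0.072). Both were lost without SRRM4 library 2, that against LSD1+8a also without LSD1+8a library 2 or 3, and that against LSD1 also without LSD1 library 2. The list of other keratins and basal markers had 7 measured genes (19 listed). Against EV none of them was called by edgeR, DESeq2 or limma or had an unadjusted p under 0.05 in edgeR, and their median was 0.11. KRT10 was at 0.16, KRT14 at 0.27, ITGB4 at 0.11 and LAMA3, a laminin chain, at 0.08. LAMA3 was called higher against LSD1 (0.16, edgeR adjusted p = 0.044), also by DESeq2 and not by limma on TPM, and lost that call in 8 of 12 analyses with 1 library left out.

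The matrix receptors, to which ITGA6 belongs, also split. Of 15 measured (25 listed), 3 rose and 2 fell, with a median of 0.02. CD82, a tetraspanin that binds integrins, rose by 0.57 from 12.7 ± 0.671 to 18.9 ± 1.42 CPM (SD, n = 3; edgeR adjusted p = 5.2e-05). ITGA3, the other main alpha subunit of epithelial laminin receptors, rose by 0.44 from 11.1 ± 0.857 to 14.9 ± 1.52 CPM (SD, n = 3; edgeR adjusted p = 0.0073), while ITGA6 fell. SDC1 (syndecan 1) was at 0.16. CD9, another tetraspanin, was at -0.16 (edgeR adjusted p = 6.4e-04) and BCAM, a laminin-binding adhesion molecule, at -0.21 (edgeR adjusted p = 0.0031).

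Of the other mesenchymal markers and transition factors, 13 of 44 listed were measured. None rose, 1 fell and the median was 0.09. The gene that fell was COL6A1, a collagen VI chain, at -0.13 (SE 0.037, edgeR adjusted p = 0.032), from 269.5 ± 17.1 to 247 ± 7.78 CPM (SD, n = 3). SNAI1, a repressor of CDH1, was at 2.40 ± 0.337 CPM with EV and 3.42 ± 0.329 with SRRM4 (SD, n = 3), and its log2 fold change of 0.51 did not pass the test (edgeR adjusted p = 0.14). ACTA2 (smooth muscle actin) was at 0.32 (edgeR adjusted p = 0.17) and FSCN1 (fascin, an actin-bundling protein) at 0.18 (edgeR adjusted p = 0.29). CDH2, ZEB1, ZEB2 and SNAI2 were not analysed here.

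Of 30 genes of the beta-catenin destruction complex, its partners and Wnt targets (35 listed), none rose and 2 fell, with a median of -0.02. These were the groucho co-repressor TLE3 at -0.22 (SE 0.038, edgeR adjusted p = 1.1e-04) and the beta-catenin cofactor PYGO2 at -0.13 (SE 0.040, edgeR adjusted p = 0.031). BCL9, another beta-catenin cofactor, was at -0.13 and did not pass (edgeR adjusted p = 0.0502). Of 13 intermediate filament genes and linkers (19 listed), 1 rose and 3 fell, with a median of 0.02. LMNA, the nuclear lamin A/C gene, rose by 0.37 from 113 ± 2.27 to 145 ± 1.21 CPM (SD, n = 3; edgeR adjusted p = 1.6e-08). PPL (periplakin) was at -0.26, LMNB1 (lamin B1) at -0.13 and DSP, which is on this list too, at -0.17. The linkers PLEC (plectin) and EPPK1 (epiplakin) were not called against EV (0.11 and 0.05) and were called higher against LSD1+8a, PLEC by 0.16 (edgeR adjusted p = 0.0059) and EPPK1 by 0.13 (edgeR adjusted p = 0.048). Limma on TPM made neither call and DESeq2 that of PLEC alone. The PLEC call was lost without LSD1+8a library 2, and that of EPPK1 in 8 of 12 analyses with 1 library left out. Of the 23 list genes called against EV, LMNA and CD9 were called in every alternative analysis run. SCRIB, CD82, BCAM, ERBB3 and TLE3 lost their call on TPM only, and the other 16 lost it when 1 or more single libraries were left out. Of the same 23, 14 were not called by DESeq2 and 19 were not called by limma on TPM.

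Against EV, no gene of the 8 lists was called with LSD1 or with LSD1+8a by edgeR, DESeq2 or limma, and none was called between LSD1+8a and LSD1. At an unadjusted p under 0.05 in edgeR, the counts per list were at most 2 higher and 4 lower in any of these 3 comparisons. The share of all genes at that unadjusted threshold was not counted.

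The genes most like each called member across the 12 libraries were sought among 12030 genes by Pearson's r of log2 CPM, as a description with no test. Genes with clone-type names, or with LINC or LOC symbols, were skipped. The points share their libraries and the SRRM4 group stands apart for most members, so r is also given over the 9 libraries without SRRM4. VIM was most like EFNA1 (r = 0.96, and 0.87 over 9), IQGAP3 (0.95 and 0.66) and NSL1 (0.94 and 0.72). FN1 was most like CKMT1B, BSN and MAPK8IP2 (0.97 each), with r of 0.39, 0.37 and 0.50 over 9. These 3 were the genes whose likeness dropped most without the SRRM4 libraries, together with C9orf152 for ITGA6. CDH1 was most like TLE1 (0.91 and 0.97), KCTD11 (0.90 and 0.85) and ATF5 (0.89 and 0.87). KRT8 was most like TP53INP2 (0.95 and 0.84), TNFAIP1 (0.94 and 0.87) and CLTA (0.94 and 0.80). ITGA6 was most like CAB39L (0.96 and 0.75), C9orf152 (0.96 and 0.46) and GLI3 (0.95 and 0.76).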

How the data were processed

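RNA-seq of 12 LNCaP libraries, 3 for each of 4 plasmids, was used as deposited. The count table holds whole-number counts per gene, per the file headers. The TPM table holds TPM computed by the authors, per the file headers. Another deposited table holds the authors' log2 fold changes against EV, each with its p-value, raw and adjusted, per the file headers. Per the submitters' processing notes, STAR 2.5.3a, RSEM 1.2.31 and hg19 were used, with no role given for any. Strand use in counting is not given in the sources used here, and gene counts do not separate splice forms.

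TMM factors scaled the counts, and filterByExpr kept all 13001 genes. The tests of 6 comparisons used edgeR 4.0.16 (R 4.3.3), its quasi-likelihood model fitted robustly to the 4 groups at once. A gene was called where its p, adjusted by Benjamini-Hochberg across the 13001 genes, was under 0.05. CPM are TMM-scaled, SD are over 3 libraries, and 95% intervals come from the model's SE. The coefficient of variation that edgeR terms biological was 2.98%, over libraries whose spread may be technical only. Chi-square values per degree of freedom between libraries of a group (1.44 to 2.88) gave no sign of a duplicated library. Alternatives used limma 3.58.1 on log2(TPM + pseudocount of 1 or 0.1), where fold changes of low genes are understated, and DESeq2 1.42.0. They also used other scalings and filters, removal of KDM1A, 2 groups only, a replicate block, and each library left out. The edgeR, DESeq2 and limma fits were tested on counts simulated with the same dispersion for every gene. There limma was given counts scaled without transcript length, so its use on TPM was not tested.

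Named genes were the 10 members, up to 4 list genes with the smallest p, list genes called in a comparison other than SRRM4 against EV, and 3 genes most like each called member. The members and lists were chosen with earlier results of these data known. Some marker gene results are not reported here.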

Additional observations from a re-analysis of the deposited data

How the results depend on the processing

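Against EV, the direction of VIM, FN1, KRT8, ITGA6, KRT18, KRT19, CLDN7 and CTNNB1 with SRRM4 held in all 22 alternatives. DESeq2 called the same 5 members against EV, and the same 4 against LSD1+8a and LSD1, with fewer genes in all: 563 for SRRM4 against EV, 522 against LSD1+8a and 499 against LSD1. limma on TPM called 2 members, VIM and FN1, in each of these comparisons. With a pseudocount of 1 or 0.1 it called 327 and 325 genes for SRRM4 against EV, 211 and 203 against LSD1+8a, 185 and 178 against LSD1, 24 and 24 for LSD1+8a against EV, 6 and 6 for LSD1 against EV, and 21 and 19 for LSD1+8a against LSD1. With 2 groups only, LSD1 against EV gave 20 genes. Upper-quartile scaling changed the split of SRRM4 against EV from 581 higher and 418 lower to 497 and 561, against LSD1+8a from 574 and 412 to 492 and 497, and against LSD1 from 569 and 347 to 492 and 425, with the same members called.

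On TPM, with a pseudocount of 1 and 0.1 in turn, these log2 fold changes turned direction and did not pass the test; apart from the scale of the values, the cause was not tested. For CDH1 they were 0.14 and 0.14 for SRRM4 against EV, 0.13 and 0.13 for LSD1+8a against EV, 0.092 and 0.093 for LSD1 against EV, 0.0096 and 0.0096 for SRRM4 against LSD1+8a and 0.046 and 0.046 for SRRM4 against LSD1. For EPCAM they were 0.036 and 0.036 with SRRM4, 0.056 and 0.057 with LSD1+8a and 0.0044 and 0.0044 with LSD1, each against EV. With LSD1+8a, FN1 gave 0.00051 and 0.00052, KRT8 0.024 and 0.025, and CLDN7 -0.0032 and -0.0032 (also -0.00012 with upper-quartile scaling). With LSD1, ITGA6 gave -0.12 and -0.13 and CTNNB1 0.011 and 0.011. Calls lost on TPM were ITGA6 against EV, LSD1+8a and LSD1 (limma adjusted p = 0.088, 0.071 and 0.28 with a pseudocount of 1) and KRT8 (0.19, 0.36 and 0.095).

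Leaving out each library in turn gave 661 to 1133 genes and 3 to 5 members for SRRM4 against EV, 561 to 1081 and 3 to 4 against LSD1+8a, and 488 to 1001 and 4 to 4 against LSD1. The lowest count came without SRRM4 library 2 each time, and against EV the 3 members left were VIM, FN1 and ITGA6. It gave 34 to 66 genes for LSD1+8a against EV, 5 to 16 for LSD1 against EV and 29 to 45 for LSD1+8a against LSD1, with 0 members throughout. Values near 0 turned sign. With LSD1+8a these ranged from -0.019 to 0.018 for CLDN7, -0.0062 to 0.024 for ITGA6, -0.14 to 0.016 for KRT19, -0.030 to 0.013 for FN1 and -0.046 to 0.018 for KRT8. With LSD1 they ranged from -0.033 to 0.014 for FN1 and -0.019 to 0.045 for ITGA6. List genes that lost their call with SRRM4 against EV numbered 11, 10 and 8 without EV library 1, 2 and 3, and 13, 15 and 9 without SRRM4 library 1, 2 and 3. PPL also lost it without LSD1 library 1, and PPL, MPP5 and TJP1 without LSD1 library 3 or LSD1+8a library 3. Between libraries with the same number, r of the deviations from the group mean was -0.16 to 0.14 over 18 pairs, against -0.11 to 0.12 for different numbers. Its sign differed by pair of groups. It was 0.14, 0.076 and 0.0999 between EV and LSD1+8a, and -0.16, -0.087 and -0.087 between EV and LSD1. The fit with the replicate block called 887 genes and the same 5 members for SRRM4 against EV. Of the named list genes MPP5 and TJP1 lost their call with that fit. KRT19, at 26 to 64 counts per library, is limited by depth.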
